A study of Drosophila melanogaster with 13 samples.

Results

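Pita is a zinc-finger protein of Drosophila melanogaster that binds DNA at chromatin boundaries. It carries a zinc finger-associated domain (ZAD), a fold found in many insect zinc-finger proteins through which copies of such a protein pair with each other, while an array of zinc fingers reads the DNA. Described here are 7 genes, Psi, AGO2, fz2, Top2, Pino, CG13707 and CG11905, of 17684 genes in the annotation. They were chosen by the rank of the Pita peak at each, which stood high in the wild-type peak lists and far lower in the lists from flies whose Pita lacks the ZAD. The size of that fall is therefore given as a description, without a test. Every peak inside one of the genes or within 5 kb of either end was counted, which gave 47 of the 6204 peaks in the lists.

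Chromatin immunoprecipitation with sequencing (ChIP-seq) was done on whole adult flies aged 2 to 3 days, ground in bulk, so the signal averages over all tissues. All the flies carried the pita1attP allele of the pita gene, an allele that the labels do not explain further. The PitaΔZ line (y1w1118; pita1attP PitadeltaZ) had Pita without its ZAD, the PitaZ276 line (pita1attP PitaZ276) had the ZAD-like domain of human ZFP276 instead, and the Pitawt line (pita1attP Pitawt) had the wild-type protein. Chromatin of every line was precipitated with antibodies to FLAG and to Pita, both from rabbit, with 2 libraries for each of these 6 groups. A further library from Pitawt flies was labelled preimmune. Nothing in the labels says whether libraries of a group came from separate flies.

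The data were 6 lists of peaks (dm6), 1 per line and antibody, each of which joins a pair of peak lists. With the FLAG antibody the lists held 685 peaks in PitaΔZ, 1243 in PitaZ276 and 1792 in Pitawt, and with the Pita antibody 797, 492 and 1195 in that order of lines. Each peak had a −log10 p in each joined list, and these 2 values are printed for every site below, first joined list first. The fold and p of a peak are the authors' own. With 1 joined list per group no test between lines was possible, and the read depth, on which a p also depends, is unknown. Ranks are used to set lists side by side, with rank 1 the strongest and a peak's rank the mean of its ranks by the 2 values. Since the lists differ in length, each pair of lists was also ranked over the sites called in both, written as a percentile from 0 (strongest) to 100 (weakest), and a site was called dropped when it stood at least 20 points weaker in the altered line. The joined lists ranked peaks alike in PitaΔZ FLAG (Spearman rho across peaks 0.992) and Pitawt FLAG (0.982), but less so in PitaZ276 Pita (0.586), where the first joined list had a median −log10 p of 16.8 and the second of 537. The PitaΔZ Pita list lacked 31 of the 685 PitaΔZ FLAG peaks, among them the 10 strongest, and none of the 7 sites.

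Each of the 7 genes had a peak in all 6 lists, where peaks lay within the same reach of 12.6% of all genes in PitaΔZ FLAG, 21.4% in PitaZ276 FLAG, 29.3% in Pitawt FLAG, 13.4% in PitaΔZ Pita, 8.75% in PitaZ276 Pita and 20.1% in Pitawt Pita. At each gene the strongest peak was the same site in every list. The summits stayed close together. Those at CG13707 lay between 4840303 and 4840320 on 3L in the 6 lists, a spread of 17 bp, and those at Psi, the most spread, between 16867188 and 16867247 on 2R, a spread of 59 bp. The median spread was 38 bp over the 7 sites, against 55.5 bp over all 376 sites that were called in every list. What differed between lines was the strength of the peak relative to the other peaks of its list.

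In PitaΔZ the 7 sites stood from just above the middle of the list towards its weak end, and in Pitawt they were near the top. With the FLAG antibody their ranks ran from 336 to 557 of 685 in PitaΔZ, from 15.5 to 365 of 1243 in PitaZ276, and from 5 to 82.5 of 1792 in Pitawt. With the Pita antibody they ran from 347 to 697 of 797 in PitaΔZ, from 14.75 to 223.5 of 492 in PitaZ276, and from 10 to 96 of 1195 in Pitawt. As a share of the list counted from its top, the 7 sites with FLAG lay at 49.5% to 81.5% in PitaΔZ, 0.97% to 28.5% in PitaZ276 and 0.28% to 4.69% in Pitawt. For the Pita antibody the shares were 43.7% to 87.5% in PitaΔZ, 3.05% to 40.9% in PitaZ276 and 0.84% to 7.53% in Pitawt. On this scale PitaΔZ overlapped neither of the other lines, and PitaZ276 overlapped Pitawt. The gap between PitaΔZ and Pitawt follows from the choice of the 7 by rank. That between PitaΔZ and PitaZ276 contains the same PitaΔZ ranks, so neither gap says anything further about the lines.

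**Figure D1:**
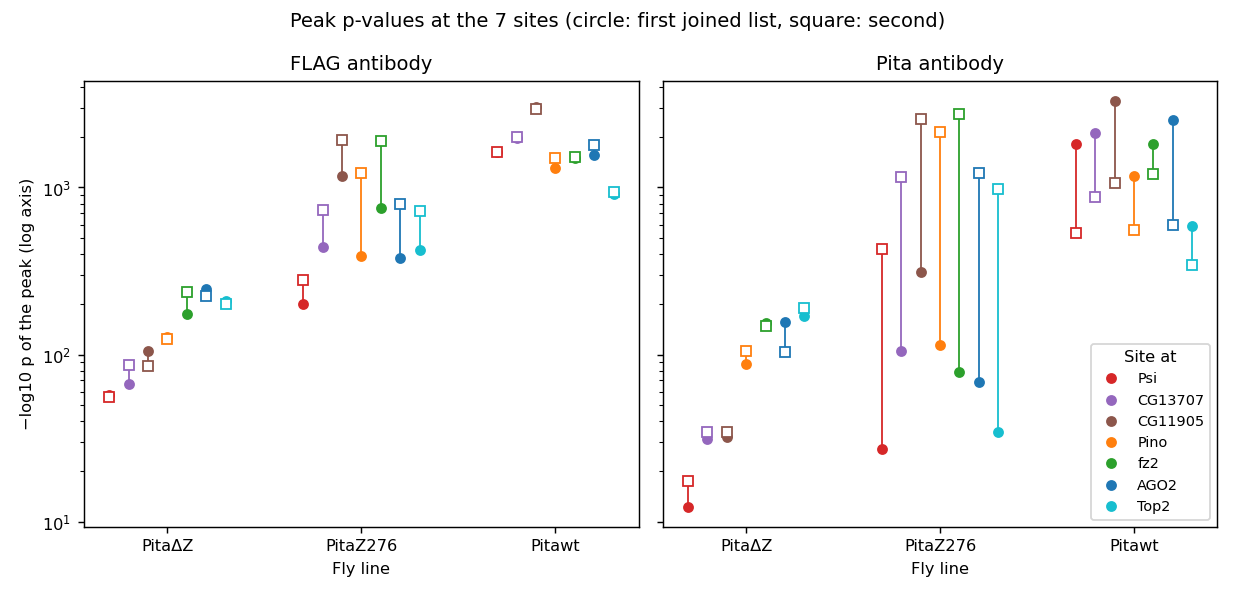
Strength of the peak at each of the 7 sites, as −log10 p on a log axis, by fly line, with the FLAG antibody (left) and the Pita antibody (right). Circles are the first and squares the second joined list; the 7 sites lie between 12.3 and 247 in PitaΔZ and between 345 and 3279 in Pitawt, and the joined lists lie farthest apart in PitaZ276 Pita.

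In dm6, Psi spans 16861321 to 16867714 on 2R. On 3L, CG13707 spans 4837791 to 4840108, AGO2 15554113 to 15561042, CG11905 16928381 to 16935536 and fz2 19140975 to 19235373. On 2L, Pino spans 1114654 to 1128953 and Top2 19447365 to 19453490. The annotation used gives no exons or strand, so a site is placed inside or outside a gene and by its distance from the nearest gene end.

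Psi encodes an RNA-binding protein that blocks splicing of the P element transposon transcript in somatic cells. Its summit lay inside the gene on 2R, 496 bp from the gene end at 16867714, and 1004 bp from the nearest end of eEF1beta. With FLAG the −log10 p was 57.3 and 55.9 in PitaΔZ, 200.4 and 281 in PitaZ276, and 1626 and 1633 in Pitawt. With the Pita antibody it was 12.3 and 17.5 in PitaΔZ, 27.1 and 428 in PitaZ276, and 1811 and 531 in Pitawt. Both PitaΔZ values lay below those of the other lines with either antibody. By rank Psi was the weakest of the 7 in the PitaΔZ and PitaZ276 lists of both antibodies, at 557 of 685 in PitaΔZ FLAG and 365 of 1243 in PitaZ276 FLAG, whereas in Pitawt FLAG it held rank 28 of 1792, the fourth of the 7.

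AGO2 encodes the Argonaute protein that carries small interfering RNAs in RNA interference. Its summit lay inside the gene on 3L, 279 bp from the end at 15554113, with CrebA the next gene at 1178 bp. With FLAG the −log10 p was 247 and 225 in PitaΔZ, 380.1 and 795 in PitaZ276, and 1562 and 1805 in Pitawt. For the Pita antibody the values were 156 and 104 in PitaΔZ, 68.5 and 1226 in PitaZ276, and 2529.55 and 597 in Pitawt. The first PitaZ276 value with the Pita antibody lay below both PitaΔZ values, and the second above them. In PitaΔZ FLAG the site was the strongest of the 7, at rank 336 of 685, against rank 136 of 1243 in PitaZ276 and rank 27 of 1792 in Pitawt.

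fz2 encodes Frizzled 2, a receptor for Wnt ligands such as Wingless. The summit lay outside the gene on 3L, 458 bp from its end at 19140975 and 1542 bp from the nearest end of CG14082. With FLAG the −log10 p was 176 and 236 in PitaΔZ, 753 and 1911 in PitaZ276, and 1509 and 1512 in Pitawt. In the Pita antibody lists it was 155 and 149 in PitaΔZ, 78.6 and 2736 in PitaZ276, and 1819 and 1209 in Pitawt. The FLAG values of PitaZ276 lay on either side of those of Pitawt, and those of PitaΔZ lay below both. The rank was 352.5 of 685 in PitaΔZ FLAG, 28 of 1243 in PitaZ276 FLAG and 33 of 1792 in Pitawt FLAG.

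Top2 encodes the type II topoisomerase that passes DNA strands through each other and shapes mitotic chromosomes. Its summit lay 78 bp outside the gene end at 19453490 on 2L, the closest of the 7 to a gene end, and 688 bp from CG10026. With FLAG the −log10 p was 209 and 202 in PitaΔZ, 421 and 719.7 in PitaZ276, and 915 and 936 in Pitawt. The Pita antibody gave 171 and 189.6 in PitaΔZ, 34.2 and 984.5 in PitaZ276, and 589 and 345 in Pitawt. Top2 was the weakest of the 7 in both Pitawt lists, at rank 82.5 of 1792 with FLAG and 96 of 1195 with the Pita antibody. In PitaΔZ it was the second strongest with FLAG (rank 351 of 685) and the strongest with the Pita antibody (347 of 797).

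Pino, also called smi21F, is a gene first met through mutants with an altered response to odours. Its summit lay inside the gene on 2L at 1118310, 3656 bp from the nearest gene end. With FLAG the −log10 p was 127 and 125 in PitaΔZ, 391 and 1228 in PitaZ276, and 1303 and 1507 in Pitawt. Pita antibody values were 87.6 and 105 in PitaΔZ, 114 and 2154 in PitaZ276, and 1177 and 559 in Pitawt. The rank was 421 of 685 in PitaΔZ FLAG, 94 of 1243 in PitaZ276 FLAG and 39.5 of 1792 in Pitawt FLAG, so it stood in the middle of the 7 in PitaΔZ.

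CG11905 and CG13707 are protein-coding genes for which no role is stated here. The CG11905 summit lay inside the gene on 3L at 16930694, 2313 bp from the nearest gene end. Its FLAG −log10 p was 105 and 85.7 in PitaΔZ, 1176 and 1932 in PitaZ276, and 3041 and 2949 in Pitawt. In lists of the Pita antibody it was 32.2 and 34.5 in PitaΔZ, 312 and 2562 in PitaZ276, and 3279 and 1061 in Pitawt. It was the strongest of the 7 in both Pitawt and both PitaZ276 lists, at rank 5 of 1792 in Pitawt FLAG and 15.5 of 1243 in PitaZ276 FLAG, and only the fifth of the 7 in PitaΔZ, at rank 466 of 685 with FLAG and 597 of 797 with the Pita antibody. The CG13707 summit lay 199 bp outside the gene end at 4840108, with no other gene end within 6716 bp. Its FLAG −log10 p was 66.5 and 86.2 in PitaΔZ, 443 and 738 in PitaZ276, and 1983 and 2005 in Pitawt, and with the Pita antibody 31.1 and 34.4 in PitaΔZ, 105 and 1155 in PitaZ276, and 2109 and 873 in Pitawt. In FLAG lists its rank was 497.5 of 685 in PitaΔZ, 125.5 of 1243 in PitaZ276 and 17.5 of 1792 in Pitawt.

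The comparison of PitaΔZ with Pitawt asks what becomes of a site when Pita has no ZAD. Of the 662 sites shared by these FLAG lists, 20.2% dropped by at least 20 points and 22.2% stood at least 20 points stronger in PitaΔZ. The 7 sites all dropped, as their choice made them do, by 40.4 points at Top2 to 79.0 points at Psi, with a median of 57.6 points; the median over all shared sites was −1.78 points. Psi stood at percentile 83.2 in PitaΔZ against 4.24 in Pitawt, and AGO2 at 51.0 against 3.93. Each of the 7 was weaker in PitaΔZ by either joined value taken alone, but both values make up the rank that chose them. How many of the 662 sites were weaker by both values was not counted.

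**Figure D2:**
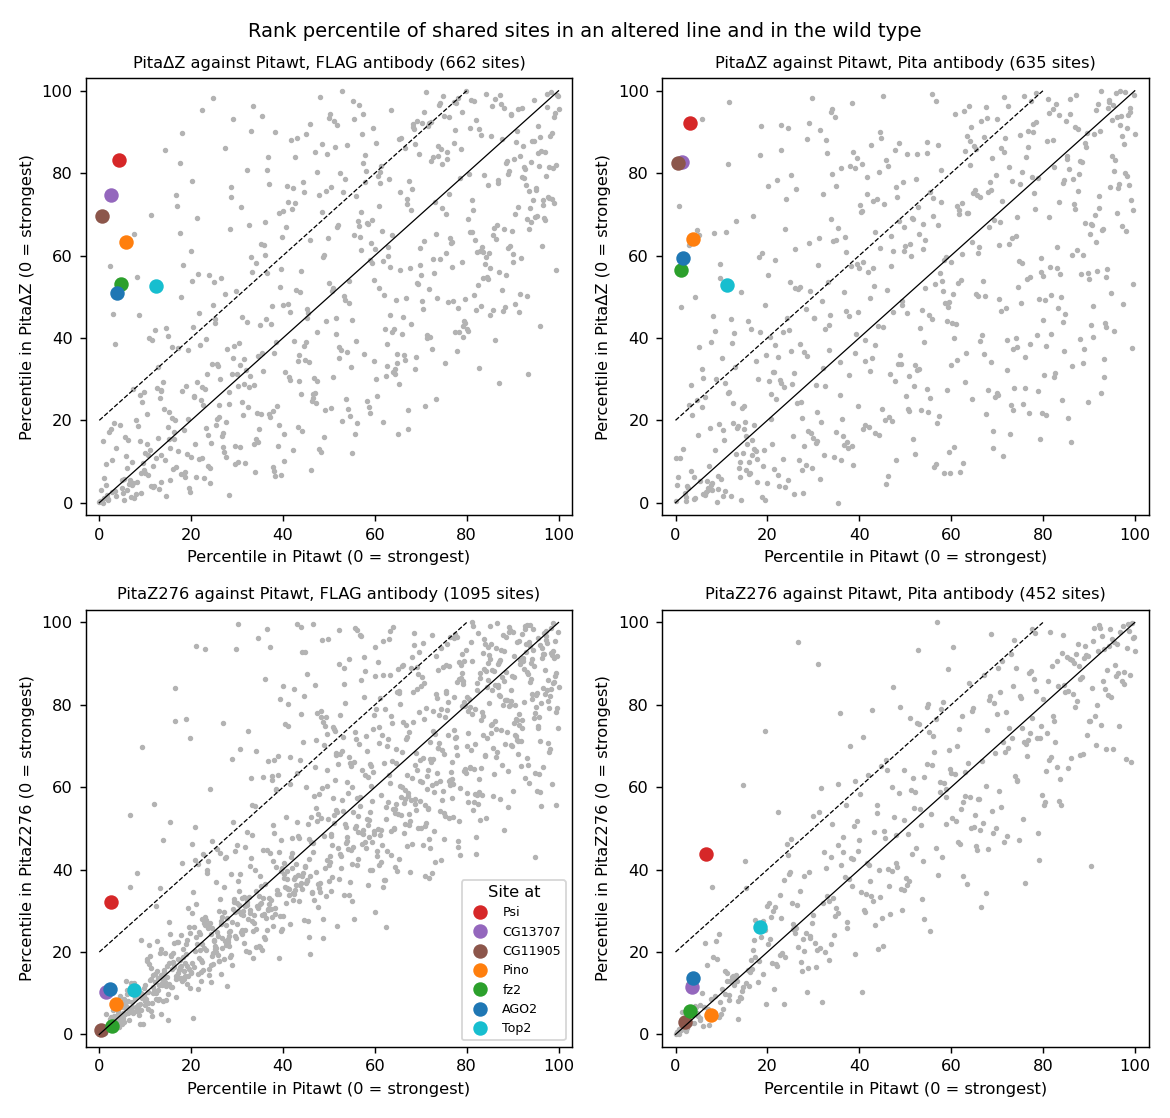
Percentile of every site shared by an altered line and Pitawt, with the altered line on the vertical and Pitawt on the horizontal axis (0 is the strongest site); the solid line marks equal percentiles and the dashed line a drop of 20 points. In PitaΔZ (top) the 7 coloured sites lie above the dashed line with either antibody, at 40.4 to 79.0 points with FLAG; in PitaZ276 (bottom) only Psi does.

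With FLAG the strongest wild-type sites dropped about as often as all shared sites only when the chosen sites are counted. With the Pita antibody they dropped more often, with or without the chosen sites. Of the 66 shared sites in the strongest 10% of Pitawt FLAG, 15 dropped (22.7%), and 6 of those 15 were the sites at the 7 genes other than Top2, which stood at percentile 12.3. Among the other 60 strong sites, 9 dropped and the median change was 2.42 points. For the Pita antibody the same drop was met at 22.7% of 635 shared sites and a rise of that size at 25.5%. In the strongest 10% of Pitawt with that antibody, 27 of the 64 sites dropped (42.2%). Among the 58 of these that are not at the 7 genes, 21 dropped and the median change was 9.82 points. The 7 sites were 41.6 to 89.0 points weaker with the Pita antibody in PitaΔZ, with a median of 60.3 points. These values come from a second antibody on the same lines. Whether the genes were also chosen with them in view is not recorded, so they are not a separate check on the FLAG drops.

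The sites with the largest drops were the same with both antibodies. The FLAG drops chose the genes, so this is a description and not a separate check. Psi, CG13707 and CG11905 lay farthest down, at 79.0, 72.3 and 69.1 points weaker in PitaΔZ with FLAG and at 89.0, 81.4 and 82.0 points with the Pita antibody. Pino, fz2, AGO2 and Top2 were 57.6, 48.3, 47.0 and 40.4 points weaker with FLAG and 60.3, 55.4, 57.7 and 41.6 points with the Pita antibody. Within each of these sets of sites the order was less sure. With FLAG the changes by the first and second joined value overlapped between CG13707 (74.9 and 69.7 points) and CG11905 (67.0 and 72.0), and between fz2 (51.7 and 44.6) and AGO2 (45.1 and 48.1). The Pita antibody values overlapped between CG13707 and CG11905, and between AGO2 and each of fz2 and Pino.

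The authors' fold enrichment over background was low at the 7 sites in PitaΔZ and high in Pitawt, relative to other sites of each list. It belongs to the same peak calls as the p whose ranks chose the genes, so it is not separate support. Divided by the median fold of the 376 sites called in all 6 lists, the fold at the 7 sites was 0.185 to 0.760 in PitaΔZ FLAG, 0.528 to 2.47 in PitaZ276 FLAG and 1.51 to 2.80 in Pitawt FLAG. With the Pita antibody it was 0.107 to 0.731 in PitaΔZ, 0.863 to 4.27 in PitaZ276 and 2.19 to 5.94 in Pitawt. All 7 sites were below the median in both PitaΔZ lists and above it in both Pitawt lists, and in PitaZ276 Psi alone was below it, at 0.528 with FLAG and 0.863 with the Pita antibody. As deposited, the fold at Psi was 7.28 in PitaΔZ FLAG, 12.7 in PitaZ276 FLAG and 52.5 in Pitawt FLAG, values that describe each list alone.

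**Figure D3:**
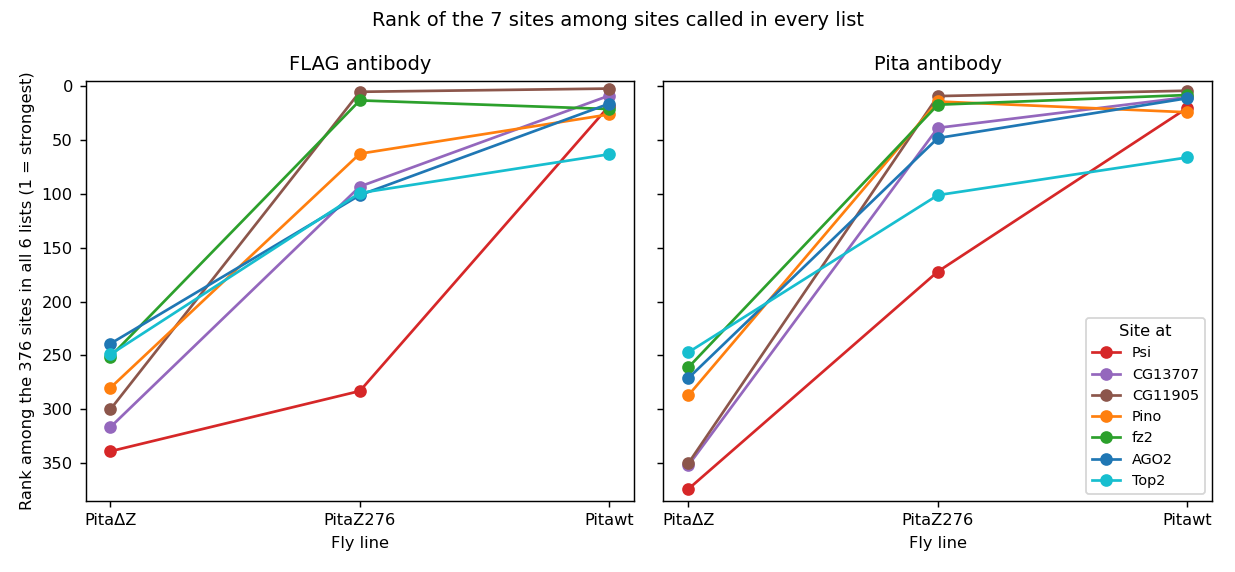
Rank of the 7 sites among the 376 sites called in all 6 lists (1 is the strongest, at the top) in PitaΔZ, PitaZ276 and Pitawt, with the FLAG antibody (left) and the Pita antibody (right); lines join the values of a site. In FLAG lists the sites lie at ranks 239 to 339 in PitaΔZ and 2 to 63 in Pitawt, and Psi stays at 283 in PitaZ276.

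The comparison of PitaZ276 with Pitawt asks whether the human ZAD-like domain can stand in for the native one. Of the 7 sites, 1 dropped with FLAG and the same 1 with the Pita antibody, and it was Psi. Over all sites, 10.5% of 1095 dropped and 8.13% stood at least 20 points stronger in PitaZ276 with FLAG, and 9.07% of 452 dropped and 8.19% stood stronger with the Pita antibody. In the strongest 10% of Pitawt, 4.55% dropped with FLAG and 4.35% with the Pita antibody. Psi was 29.6 points weaker in PitaZ276 with FLAG (percentile 32.2 in PitaZ276 against 2.56 in Pitawt) and 37.3 points weaker with the Pita antibody (43.9 against 6.65). At CG11905, the strongest wild-type site of the 7, the change was 0.64 points with FLAG and 1.11 points with the Pita antibody, and at fz2 it was −0.73 and 2.66 points. At Pino it was 3.79 points with FLAG and −2.99 points with the Pita antibody, so the antibodies gave opposite signs. CG13707 and AGO2 were 8.82 and 8.68 points weaker in PitaZ276 with FLAG, and Top2 3.29 points. Both PitaZ276 comparisons use Pitawt lists, of which the FLAG list served in choosing the genes and the Pita antibody list may have. When ranked over the 376 sites found in every list, CG13707 and AGO2 dropped as well with FLAG, giving 3 of 7, where 6.91% of all 376 dropped.

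Set against PitaZ276 directly, PitaΔZ was weaker at all 7 sites with both antibodies. The difference in percentile was 31.2 points at Psi, 32.4 at AGO2, 34.2 at Top2, 48.9 at fz2, 50.4 at Pino, 57.0 at CG13707 and 66.9 at CG11905 with FLAG, where 15.3% of 667 shared sites dropped and 16.5% stood stronger in PitaΔZ. For the Pita antibody it ran between 35.3 points at Top2 and 84.2 at CG11905, where 20.2% of 420 shared sites dropped and 21.2% stood stronger. In the strongest 10% of PitaZ276, 16.4% dropped with FLAG and 42.9% with the Pita antibody. At Psi the FLAG difference was 39.2 points by the first joined value and 21.2 by the second. These values contain the PitaΔZ ranks that chose the genes, and over the 376 sites found in every list the Psi difference with FLAG was 15.2 points.

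At all 7 sites the peaks were narrower in PitaΔZ than in Pitawt with both antibodies. How many of the 376 sites found in every list were narrower too was not counted. At CG11905 the peak measured 732 bp in PitaΔZ FLAG, 4627 bp in PitaZ276 FLAG and 4432 bp in Pitawt FLAG. At Pino the widths were 1437, 4860 and 4128 bp in the same order of lines, and at Psi 926, 1494 and 2842 bp. AGO2 had a compact peak in every line, of 493 bp in PitaΔZ FLAG, 671 bp in PitaZ276 FLAG and 665 bp in Pitawt FLAG. The median width over the 7 sites was 732 bp in PitaΔZ FLAG, 1625 bp in PitaZ276 FLAG and 2787 bp in Pitawt FLAG, against 1442.5, 1977 and 1701.5 bp over the 376 sites found in every list. With the Pita antibody the median width over the 7 sites was 494 bp in PitaΔZ and 1529 bp in Pitawt, against 880 and 1030 bp. The 7 sites were thus narrower than these sites in PitaΔZ and wider in Pitawt, by medians alone. They were chosen by peak strength, and whether width follows strength was not tested.

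**Figure D4:**
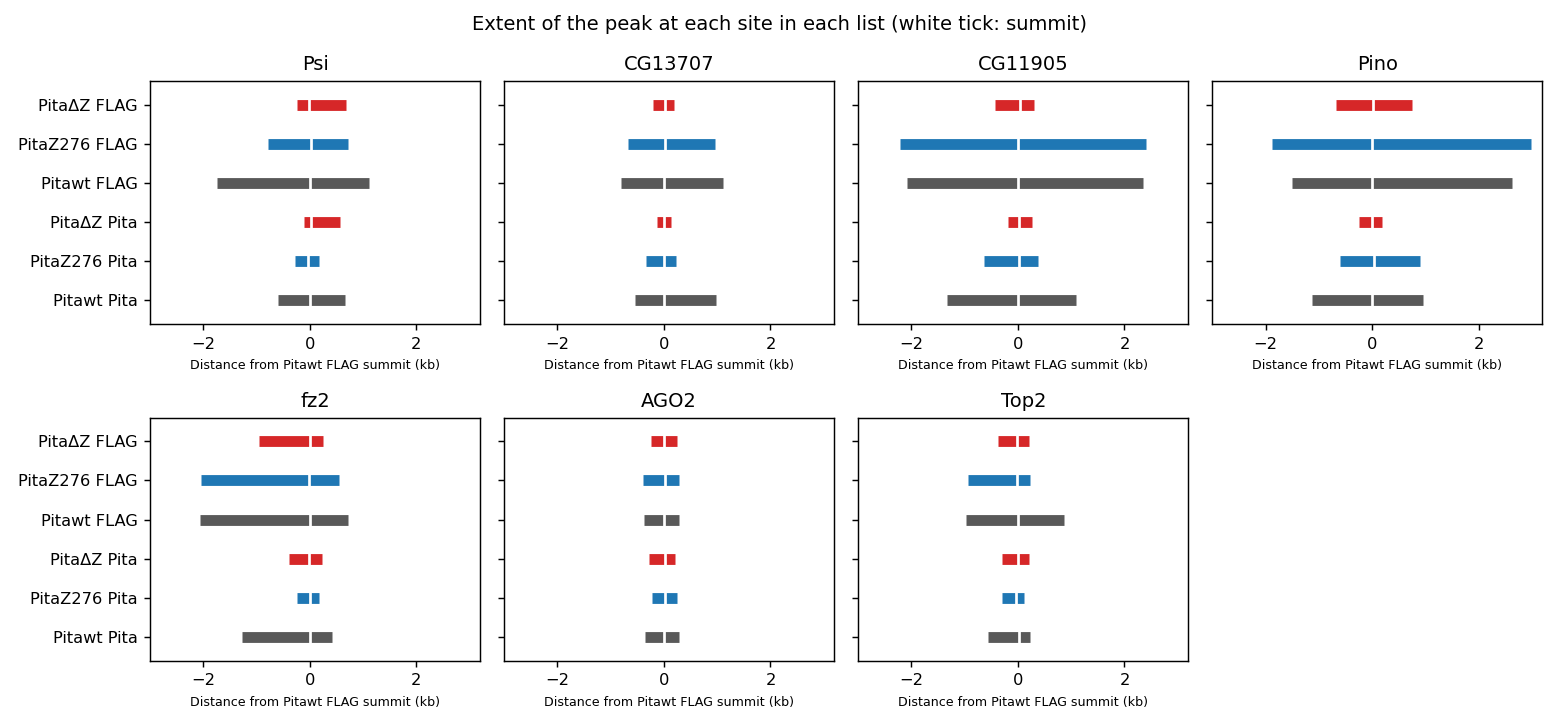
Extent of the peak at each of the 7 sites in the 6 lists, as distance in kb from the Pitawt FLAG summit, with PitaΔZ in red, PitaZ276 in blue and Pitawt in grey; white ticks mark summits. The summits stay within 59 bp of each other at every site, while the FLAG peak at CG11905 spans 732 bp in PitaΔZ, 4627 bp in PitaZ276 and 4432 bp in Pitawt.

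The sites shared no common place relative to their genes. Summits lay inside Psi, AGO2, Pino and CG11905 and outside fz2, Top2 and CG13707. Of the 7 summits, 5 lay no more than 500 bp from a gene end, against 271 of the 376 sites found in every list (72.1%). The farthest summits, at Pino and CG11905, lay in the genes with the widest wild-type peaks. No chromosome held them all, with Psi on 2R, Top2 and Pino on 2L, and the other 4 on 3L.

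Further peaks near the genes were few, 5 in all, and none was in a PitaΔZ list or in Pitawt FLAG. Inside fz2, a gene of 94399 bp, PitaZ276 FLAG had a second peak with a summit at 19203084 (rank 1012.5 of 1243) and Pitawt Pita another at 19181216 (rank 1089 of 1195). Pino had a second peak in Pitawt Pita (rank 1013.25 of 1195) and 1 in PitaZ276 FLAG, 4812 bp outside the gene (rank 876.5 of 1243), which was the peak closest to the 5 kb limit from within. Beyond the limit, the next peak lay 10484 bp from fz2, in Pitawt Pita, at rank 923 of 1195, and a strong one lay 12334 bp from Pino in PitaZ276 FLAG, at rank 17 of 1243. A second peak inside CG11905 in PitaZ276 Pita, at rank 198.75 of 492, joined the same peak of the second joined list as the main peak did, and it is not a separate site.

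Among the 376 sites found in every list, 6 of the other 369 lay inside the range of percentiles spanned by the 7 sites in all 6 lists. The sites most like the median profile of the 7, by mean absolute difference in percentile over the 6 lists, were nearest to CG32512 (5.47 points, summit inside bves), mtd (5.78, inside mtd), CG5674 (5.89, inside btv), gukh (6.64, inside gukh) and CR31032 (7.98, in no gene). At the bves site the percentile was 65.9 in PitaΔZ FLAG, 8.67 in PitaZ276 FLAG and 4.27 in Pitawt FLAG, against medians over the 7 of 74.4, 24.5 and 4.53. Of the 7 themselves, Pino and AGO2 were nearest to this median, at 3.38 and 3.40 points, and Psi was farthest from it, at 21.3 points.

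Sites at genes of the same pathways as Psi, AGO2, fz2 and Top2 were set beside all shared sites. Of those, 20.2% dropped and 22.2% stood at least 20 points stronger in PitaΔZ. The counts of peaks and of drops below include the chosen gene of each group, whose peak and drop were fixed by its choice. Without it, 1 of 7 sites dropped in the group of Psi, 1 of 5 in that of AGO2, 0 of 10 in that of fz2 and 0 of 1 in that of Top2. Among 24 regulators of alternative splicing, the group of Psi, 15 had a Pitawt FLAG peak within 5 kb, a property of 29.3% of all genes, and 8 had a site shared with PitaΔZ FLAG. Of these 8, 2 dropped, Psi and U2af38, the small subunit of the splicing factor U2AF (25.0 points weaker in PitaΔZ), and 3 stood at least 20 points stronger in PitaΔZ. Among those stronger in PitaΔZ were Sxl, the master gene of female sex determination (percentile 7.72 in PitaΔZ against 37.97 in Pitawt), and Hrb98DE, which encodes a nuclear RNA-binding protein (58.5 against 78.9). Also stronger was a peak 1385 bp from bru1, which encodes the RNA-binding protein Bruno (59.5 against 84.3). At fl(2)d, which acts with Sxl, the change was −5.82 points, and at snRNP-U1-70K, a component of the U1 particle, −10.14 points, neither of which reached 20 points.

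Among 25 genes of small RNA pathways, the group of AGO2, 11 had a Pitawt FLAG peak and 6 had a shared site, of which 2 dropped and 3 stood at least 20 points stronger in PitaΔZ. Those that dropped were AGO2 and vas, an RNA helicase gene of the germline (37.7 points weaker in PitaΔZ). Of those stronger in PitaΔZ, krimp, a gene of the piRNA pathway, stood at percentile 19.6 in PitaΔZ against 61.7 in Pitawt, and AGO1, the Argonaute that carries microRNAs, at 26.6 against 47.0. At a peak 3943 bp from Hen1, which encodes the methyltransferase that protects small RNA ends, the percentile was 18.99 in PitaΔZ against 39.0 in Pitawt.

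Among 30 genes of Wnt signalling, the group of fz2, 19 had a Pitawt FLAG peak and 11 had a shared site, of which fz2 alone dropped and 2 stood at least 20 points stronger in PitaΔZ. Those 2 were Apc, a member of the complex that destroys beta-catenin (percentile 13.0 in PitaΔZ against 47.9 in Pitawt), and arr, a co-receptor for Wnt ligands (66.6 against 93.5). A peak 3062 bp from fz3, another Frizzled gene, stood at percentile 2.34 in PitaΔZ against 5.14 in Pitawt, where fz2 stood at 53.0 against 4.69. At Axn, a scaffold of the same complex as Apc, the change was −13.1 points, and at a peak 2608 bp from nkd, a feedback inhibitor of the pathway, −17.1 points, neither of which reached 20 points. The site 1025 bp from CkIalpha, 19.97 points weaker in PitaΔZ, lay just short of a drop.

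Among 22 genes of topoisomerases and chromosome structure, the group of Top2, 11 had a Pitawt FLAG peak. Only those of Top2 and Top3beta were shared with PitaΔZ FLAG. The Top3beta peak, 2768 bp from the gene, was 8.17 points weaker in PitaΔZ. The peak 1111 bp from SMC1, a cohesin subunit gene, had rank 105.5 of 1792 in Pitawt FLAG and was in neither PitaΔZ list; in PitaZ276 FLAG it had rank 783.5 of 1243, which was 60.4 points weaker than in Pitawt over shared sites. At barr, a condensin subunit gene, the site was likewise absent from PitaΔZ FLAG and 31.8 points weaker in PitaZ276 than in Pitawt.

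**Figure D5:**
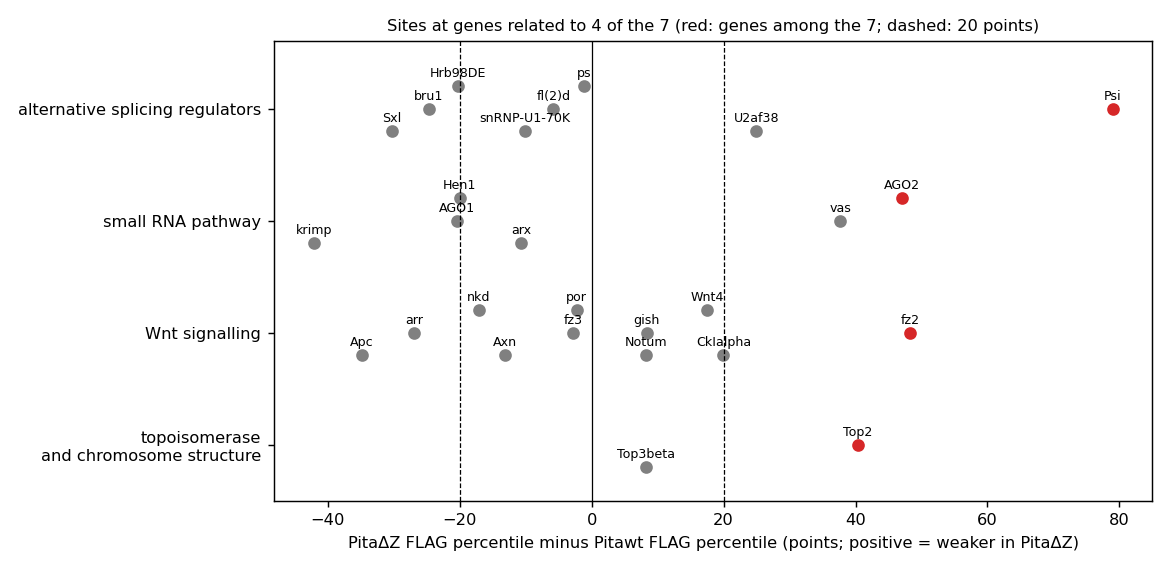
Change in percentile at sites of genes from 4 groups, PitaΔZ FLAG minus Pitawt FLAG in points, where positive values are weaker in PitaΔZ; each point is the strongest Pitawt FLAG site within 5 kb of the gene. The genes among the 7 (red) lie at 40.4 to 79.0 points, and of the others only vas and U2af38 pass the dashed line at 20 points.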

How the data were processed

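Pita ChIP-seq peaks from whole adult flies of 3 lines were analysed as deposited. Per the submitters' processing notes, the authors used cutadapt, Bowtie2, Picard, bedtools, MACS2 and deepTools on dm6; versions are not given in the sources used here. Chromatin was fixed with 1% formaldehyde for 15 min, per the labels' protocols. The 6 deposited lists have no header. From layout and values they join a pair of peak lists by irreproducible discovery rate (IDR): fold enrichment over background (column 7, a ratio by the authors), −log10 p and −log10 q, a scaled score as deposited, the −log10 IDR, and −log10 p in each joined list (columns 15 and 19). By its name, each list was called with the preimmune library as control.

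Peaks overlapping by at least 1 bp were paired 1 to 1 by nearest summit, and ranks by columns 15 and 19 were averaged. No test was possible, since each group gave 1 joined list. Gene positions and names came from the RefSeq table of Release 6, which has no strand or exons; the 7 genes and all genes of the 4 related groups matched by symbol or by a synonym of a single gene. In the chromosome structure group, dco, listed in error, was taken out and the cohesin gene SA was matched to SA1, both after values were seen. No genome or sequence was used here, so a planned description of sequence at the sites was not made. The 7 genes and the gene groups were chosen with earlier results of these data known. Named genes were the 7, those holding or nearest to a summit, up to 4 per gene group with the strongest Pitawt FLAG rank, and the 5 most similar sites on the main chromosomes. U2af38, CkIalpha, Hrb98DE, bru1, krimp, Apc and arr were added after their values were seen. The pairing code was tested on simulated data. Alternatives covered the rank measure, overlap, thresholds, windows and the sites ranked. Python 3.11.15, numpy 2.4.6, pandas 2.3.3 and matplotlib 3.10.9 were used.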

Additional observations from a re-analysis of the deposited data

How the results depend on the processing

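No paired analysis was possible because each list joins the libraries of its group and no result comes from a test; for the same reason no library could be left out, and ranking by column 15 or 19 alone stood in for it. Of 112 alternative counts, 100 stayed within 1.5 times the main count. Of 352 alternative values at single sites, 132 moved by more than the standard deviation of the changes by columns 15 and 19 alone. No change in percentile called as a drop turned its sign, but the 7 were chosen for large drops, so this is little support. With 50% reciprocal overlap, sites whose peaks differ in width are no longer paired: in PitaΔZ against Pitawt 1 site (AGO2) was paired and dropped with FLAG and 3 with the Pita antibody, in PitaΔZ against PitaZ276 3 with FLAG and 3 with the Pita antibody, and in PitaZ276 against Pitawt 0 of 3 with the Pita antibody. In PitaZ276 against Pitawt, a limit of 30 points left 0 drops with FLAG. With a −log10 IDR of at least 2, PitaZ276 Pita kept 201 peaks, lost Psi and had 2 drops (AGO2 and Top2). Over the 376 sites found in every list, an alternative chosen after seeing the data, PitaZ276 FLAG had 3 drops. With every list at the length of the shortest, 492 peaks, PitaΔZ Pita had peaks at 4 of the 7 genes, without Psi, CG13707 and CG11905; the authors' list lengths thus limit these counts. With a window of 2 kb, 12 Wnt genes and 5 genes of chromosome structure had a Pitawt FLAG peak; with 10 kb, 2 Wnt genes dropped. Over the alternatives, the changes in PitaΔZ against Pitawt FLAG ranged from 76.9 to 85.6 points at Psi and from 39.9 to 50.0 at Top2.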

Other observations

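Besides the 7 genes, 9 sites in the strongest 10% of Pitawt FLAG dropped in PitaΔZ FLAG. All 9 also dropped with the Pita antibody, where 42.2% of the strongest 10% of Pitawt Pita dropped. In PitaZ276 FLAG 0 of the 9 dropped, but only 4.55% of the strongest 10% of Pitawt FLAG did. These 9 sites were singled out after their values were seen. The steepest was nearest to CG5674, inside btv, 57.6 points weaker in PitaΔZ. Others lay inside gukh (49.6 points weaker in PitaΔZ), inside bves (48.4), inside wb, which encodes a laminin chain (42.8), inside scrib, a cell polarity gene (35.0), and 47 bp from an end of Ufd1 (20.3).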
